A study of Mus musculus with 2 samples.

Results

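The GIMAP genes (GTPases of the immunity-associated protein family) were described by symbol in single-cell RNA-sequencing of γδ T cells. The 8 members were Gimap1, Gimap3, Gimap4, Gimap5, Gimap6, Gimap7, Gimap8 and Gimap9, out of 27998 genes listed, and they were selected with their levels in these libraries already known, so the values below are a description. The study sorted CD3e+ TCRγδ+ cells from the liver and from the thymus of untreated wild-type C57BL/6J mice aged 8 weeks. The thymic suspension was first depleted of CD4- and CD8-bearing cells with beads, and each tissue gave 1 library by a droplet method that counts unique molecular identifiers (UMIs) at the 3′ end of transcripts. Cells with 800 to 4000 detected genes and at most 6% mitochondrial UMIs were kept, which left 8075 of 8658 liver barcodes and 4351 of 4541 thymic barcodes.

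With 1 library per tissue no difference could be tested. How the mice were divided between the libraries is not given in the sources used here. Animals, tissue, the bead depletion and the library preparation cannot be told apart. Levels are in CPM, in which a gene's UMIs in a group of cells are scaled to the total UMIs of that group, ratios are log2 ratios of these levels, and every 95% interval is exact and covers counting error only, not the spread between animals. Each molecule is counted once at its 3′ end whatever its length, so shares of UMIs between members are shares of counted molecules.

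GIMAP proteins are GTP-binding proteins of lymphocytes that sit on or near intracellular membranes. They are known for the survival and homeostasis of T cells, and loss of Gimap5 in rats and mice leaves few peripheral T cells. In the thymus, γδ T cells start as immature cells carrying CD24, lose it as they mature, and leave for tissues such as the liver. According to the study, most of them gain an effector fate while still developing in the thymus, and some keep plasticity in the periphery. Effector γδ T cells of the liver include interferon-γ-producing, NK-like and interleukin-17-producing cells. The genes lie together in a single cluster, so the family can be read as neighbours of the same chromosome as well as by function.

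All 8 members lie on chromosome 6 of GRCm38 (mm10), between positions 48647234 and 48770851, a stretch of 124 kb in the GENCODE vM21 annotation. On the plus strand lie Gimap8 (ENSMUSG00000064262, 48647234 to 48660875), Gimap9 (ENSMUSG00000051124, 48676129 to 48679114), Gimap4 (ENSMUSG00000054435, 48684549 to 48692060), Gimap7 (ENSMUSG00000043931, 48718621 to 48724636), Gimap1 (ENSMUSG00000090019, 48739054 to 48743795) and Gimap5 (ENSMUSG00000043505, 48746197 to 48754210). On the minus strand lie Gimap6 (ENSMUSG00000047867, 48701582 to 48708225), between Gimap4 and Gimap7, and Gimap3 (ENSMUSG00000039264, 48764464 to 48770851), next to Gimap5. The protein-coding neighbours are Zfp775 and AI854703 on the Gimap8 side and Tmem176b and Tmem176a on the Gimap3 side. Zfp775 was at 5.50 and 5.63 CPM in liver and thymic cells and AI854703 at 10.9 and 2.70. A read-through gene, Gm28053, joins exons of Gimap7, Gimap1 and Gimap5 and is counted separately. Of the last 500 bases of the longest coding transcript of each member, where reads of this method start, 0 were shared with its exons, and 0 of the 451 stretches of 50 bases in such an end were found in a transcript of another member. An antisense gene, Gimap1os, overlaps Gimap1 in this annotation and is not among the genes listed.

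The 250 bases before the RefSeq transcription start (GRCm38.p6), which can differ from the GENCODE start above, are shown for the 3 members with the lowest levels in the thymus relative to the liver, Gimap3, Gimap4 and Gimap7, and for Gimap6, the most counted member in the thymus. Capitals mark matches on either strand to 5 short motifs, AGGAAG (an ETS-type sequence), TGTGGT (RUNX), CCACCC (KLF), CTTTGA (TCF/LEF) and GTAAAC (FOXO), and no match overlaps another in the 4 sequences. Each sequence is read 5′ to 3′ on the strand of its gene.
Gimap3, chr6:48770852-48771101, minus strand: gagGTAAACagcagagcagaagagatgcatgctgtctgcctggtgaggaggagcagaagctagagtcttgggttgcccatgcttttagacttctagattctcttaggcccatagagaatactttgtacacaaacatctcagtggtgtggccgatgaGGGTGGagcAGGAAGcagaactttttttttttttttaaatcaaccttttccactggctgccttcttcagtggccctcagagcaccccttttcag
Gimap4, chr6:48684328-48684577, plus strand: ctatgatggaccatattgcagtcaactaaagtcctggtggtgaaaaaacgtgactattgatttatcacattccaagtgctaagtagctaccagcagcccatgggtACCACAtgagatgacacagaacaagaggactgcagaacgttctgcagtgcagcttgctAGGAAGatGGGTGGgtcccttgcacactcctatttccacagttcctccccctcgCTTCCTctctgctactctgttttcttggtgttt
Gimap7, chr6:48718371-48718620, plus strand: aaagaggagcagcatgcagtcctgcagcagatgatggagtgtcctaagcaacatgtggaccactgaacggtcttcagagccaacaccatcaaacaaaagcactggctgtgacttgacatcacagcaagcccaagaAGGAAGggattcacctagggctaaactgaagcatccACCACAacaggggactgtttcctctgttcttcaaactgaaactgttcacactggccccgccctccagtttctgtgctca
Gimap6, chr6:48708245-48708494, minus strand: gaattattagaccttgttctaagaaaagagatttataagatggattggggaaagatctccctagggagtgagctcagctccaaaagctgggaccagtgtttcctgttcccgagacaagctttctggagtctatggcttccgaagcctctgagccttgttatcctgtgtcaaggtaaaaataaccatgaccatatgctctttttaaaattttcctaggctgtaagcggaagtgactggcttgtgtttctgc
The ETS-type letters AGGAAG were present before Gimap3, Gimap4 and Gimap7 and in 7 of the 9 promoters listed for the 8 members (Gimap8 has 2), against 29.5% of all 32851 mouse promoters of the same length. The RUNX letters were present before Gimap1, Gimap4 and Gimap7 (14.0% of all promoters) and the KLF letters in 5 member promoters (28.1%), among them Gimap3 and Gimap4. GTAAAC was found before Gimap3 only (6.92%), CTTTGA before no member (13.8%), and none of the 5 before Gimap6. Only these exact letters were searched, and other forms of the same sites were not. The Gimap6 window holds CGGAAG, which differs from AGGAAG in its first base. The matches to the 5 motifs describe letters in a window and were not tied to any measurement of binding.

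Both libraries were clustered together without the GIMAP genes and Gm28053, and clusters were named from marker lists. The libraries held 24168037 liver and 17064752 thymic UMIs in kept cells, with medians of 2741 and 3271 per cell, and 60 barcodes occurred in both, without which the summed log2 ratio between the libraries was 1.82. There were 14 combinations of library and class with at least 20 cells, 5 in the thymus and 9 in the liver, and smaller ones (1 to 14 cells) are not described. The T cell genes Cd3e, Cd3d, Cd3g and Cd247 together gave 2722 to 5039 CPM in 13 of them and 909 in the liver cells led by Lyz2, Apoe and Cd74, called myeloid-like. Of the αβ T cell genes, Cd8a reached 398 in NK-like liver cells and Cd4 was at 1.32 in the liver and 0.469 in the thymus, and the γδ receptor genes were not used here. The transitional-like cluster, named from S1pr1, Cd200, Ccr7 and Smc4, also had 3 hemoglobin genes among its 10 leading genes (erythroid markers at 305 CPM in its thymic cells, against 31.5 to 48.0 in the other thymic classes). Names rebuilt in this way can differ from those of the study.

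GIMAP transcripts were more abundant in liver than in thymic γδ T cells, and the size of the difference ran from less than 2-fold to more than 20-fold between members. Summed over the 8 genes, 95889 UMIs were counted in the liver library and 19153 in the thymus library, or 3968 and 1122 CPM, a log2 ratio of 1.82 (1.80 to 1.84). The median log2 ratio of the 5618 genes with at least 100 UMIs over both libraries and at least 20 CPM in the higher was -0.22, and that of the 8 members was 1.83. Gimap1, Gimap3, Gimap4, Gimap7 and Gimap8, 5 of the 8 members, were at least 2-fold higher in the liver, as were 10.2% of all genes compared, and none was lower. Leaving mitochondrial and ribosomal-protein UMIs out of the totals shifted the median of all genes by -0.15 on the log2 scale and left the same number of members past 2-fold.

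Among the members tied to lymphocyte survival, Gimap3 and Gimap5 differed in their ratios. They are close relatives and neighbours on the chromosome. Gimap3, a mitochondrial and endoplasmic reticulum membrane protein reported to bind Bcl-2 family members, was at 601 CPM in the liver and 30.7 (95% interval 28.1 to 33.5) in the thymus, a ratio of 19.6-fold (95% interval 17.9 to 21.4). Gimap5, a lysosomal membrane protein required for the maintenance of peripheral T cells, was at 317 and 189.5 CPM, a ratio of 1.67-fold (95% interval 1.60 to 1.74). Gimap1, which mature T and B cells need to persist, lay between them at 473 and 161, 2.94-fold higher in the liver. Of these 3, Gimap3 was the least counted in the thymus and the most counted in the liver.

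Gimap4, which promotes the execution of cell death in T cells, was the most counted member in the liver with 1039 CPM, against 94.8 in the thymus (10.96-fold, 95% interval 10.4 to 11.5). Gimap6, which binds the autophagy protein GABARAPL2, was the most counted in the thymus with 481, and its liver level of 853 was 1.77-fold higher. Gimap7, a GTPase that forms homodimers and stimulates the hydrolysis of GTP by relatives, had the widest ratio, 369.9 against 14.9 CPM, or 24.8-fold (95% interval 21.9 to 28.1). Gimap8, whose protein carries several GTP-binding domains, was the least counted in the liver at 94.4 and stood at 21.8 in the thymus (4.33-fold). Gimap9 was at 221 and 128, 1.72-fold higher in the liver.

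The make-up of the family differed between the tissues. Gimap3, Gimap4 and Gimap7 together gave 12.5% of the GIMAP UMIs in the thymus and 50.7% in the liver. Gimap6 alone gave 47.4% in immature-like thymic cells and 20.1% in NK-like liver cells, where Gimap4 gave 27.8%. The share of Gimap3, Gimap4 and Gimap7 was 8.47% in immature-like, 16.6% in transitional-like and 38.5% in thymic cells of a cluster led by Ly6c2. In the liver it was 38.5% in type 17-like, 39.8% in precursor-like and 52.6% in Cd28 Socs2-like cells.

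**Figure D1:**
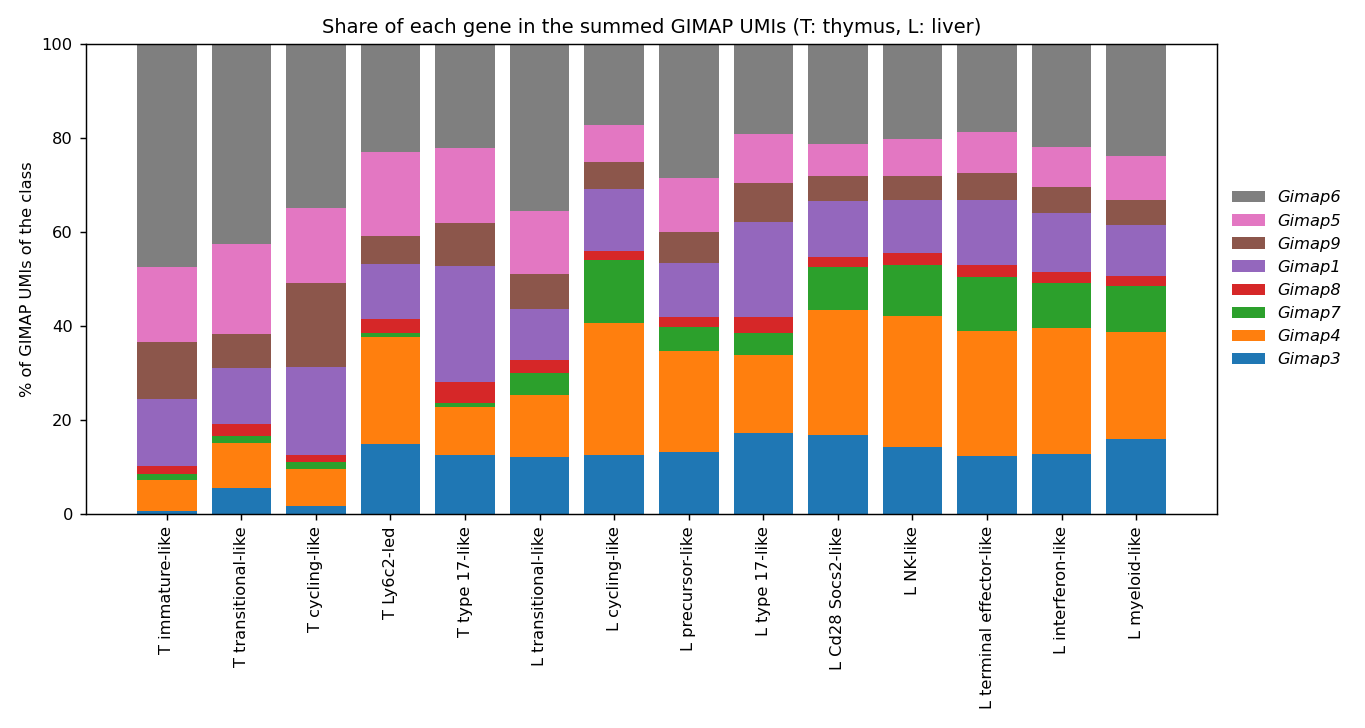
Percentage of the summed GIMAP UMIs contributed by each gene (stacked bars, y axis in %) in the 5 thymic (T) and 9 liver (L) classes. Gimap3, Gimap4 and Gimap7 (the 3 lowest segments) made up 8.47% in immature-like thymic cells and 52.9% in NK-like liver cells.

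The thymic stages were compared next, to follow the family as γδ T cells mature. Immature-like cells, which express Cd24a, Sox13 and Cpa3, held 1172 GIMAP CPM, and transitional-like cells, with S1pr1 and Ccr7, held 1586, a log2 ratio of 0.44 (0.39 to 0.48). Gimap3 had its lowest level in immature-like cells, with 49 UMIs in 2453 cells or 5.66 (95% interval 4.19 to 7.49) CPM, and was at 86.5 (95% interval 76.7 to 97.3) in transitional-like cells, a ratio of 15.3-fold (95% interval 11.2 to 21.2). Gimap4 was at 79.0 and 154 (1.95-fold), Gimap8 at 19.9 and 39.4 (1.98-fold) and Gimap5 at 187 and 304 (1.62-fold). Gimap9 was the member that was lower in transitional-like cells, at 115 against 144, a log2 ratio of -0.33 (-0.50 to -0.16).

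Gimap3 was the 1 member at least 2-fold higher in transitional-like cells, against 3.52% of the 5369 genes compared. Gimap8 and Gimap4 lay just under that limit. The log2 ratios of Gimap1 (0.19, interval 0.053 to 0.33), Gimap6 (0.28, interval 0.21 to 0.35) and Gimap7 (0.64, interval 0.20 to 1.06) were smaller, and the median of the 8 was 0.67 beside 0.028 for all genes. When the thymus was clustered alone, most transitional-like cells fell into a cluster of 830 cells led by hemoglobin genes, S1pr1 and Ccr7, with Gimap3 at 70.0 CPM, and a cluster of 303 cells led by antigen-presentation and myeloid genes (Cd74, H2-Aa, Apoe, C1qa), with Gimap3 at 102. Cd74 was at 25.7 CPM and C1qa at 0.62 in transitional-like thymic cells. Without the cells of that smaller cluster the summed log2 ratio was 0.48 and 2 members passed 2-fold.

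The immature-like cells consisted of 2 clusters. The cluster led by Igfbp4, Tox2 and Cpa3 had 95.5 CPM of Gimap4, and the cluster led by Tnfsf11, Slc35d1 and Lars2 had 50.5, a log2 ratio of 0.92 (0.66 to 1.18). Gimap6 was at 544 and 574, with a log2 ratio of -0.078 (-0.16 to 0.0069) whose interval includes 0. Gimap3 was at 6.74 and 3.79, on 37 and 12 UMIs, a log2 ratio of 0.83 (-0.14 to 1.91) whose interval includes 0 too.

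Cd24a, whose protein marks immature thymocytes, gave a grouping that does not rest on clusters. Each thymic cell was thinned to 1500 UMIs and grouped by its Cd24a UMIs. Gimap3 was at 57.0 (95% interval 49.6 to 65.1) CPM in the 2504 cells with 0 Cd24a UMIs, 24.8 in the 994 with 1, 3.04 in the 438 with 2 and 8.17 (95% interval 2.65 to 19.1) in the 408 with 3 or more. Gimap4 was at 125, 80.5, 60.9 and 44.1 over the same groups, lower at each further UMI. The intervals of the first and last group overlapped for the other members, Gimap1 (161 and 155), Gimap5 (213 and 175), Gimap6 (541 and 578), Gimap7 (15.97 and 16.3), Gimap8 (26.9 and 11.4) and Gimap9 (116 and 149). The group with 0 Cd24a UMIs also held type 17-like and cycling-like cells, and immature-like cells without a Cd24a UMI at this depth. Without type 17-like and cycling-like cells it held 2090 cells. The thinned thymic cells numbered 1002 in the transitional-like class and 178 in the Ly6c2-led cluster. The part of these immature-like cells in the values was not tested. On this grouping the summed log2 ratio of cells with 0 against cells with 3 or more was 0.14, lower than between clusters, with Gimap6 at -0.097 and Gimap7 at -0.033. Without type 17-like and cycling-like cells, the summed level was 1358 against 1175.

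**Figure D2:**
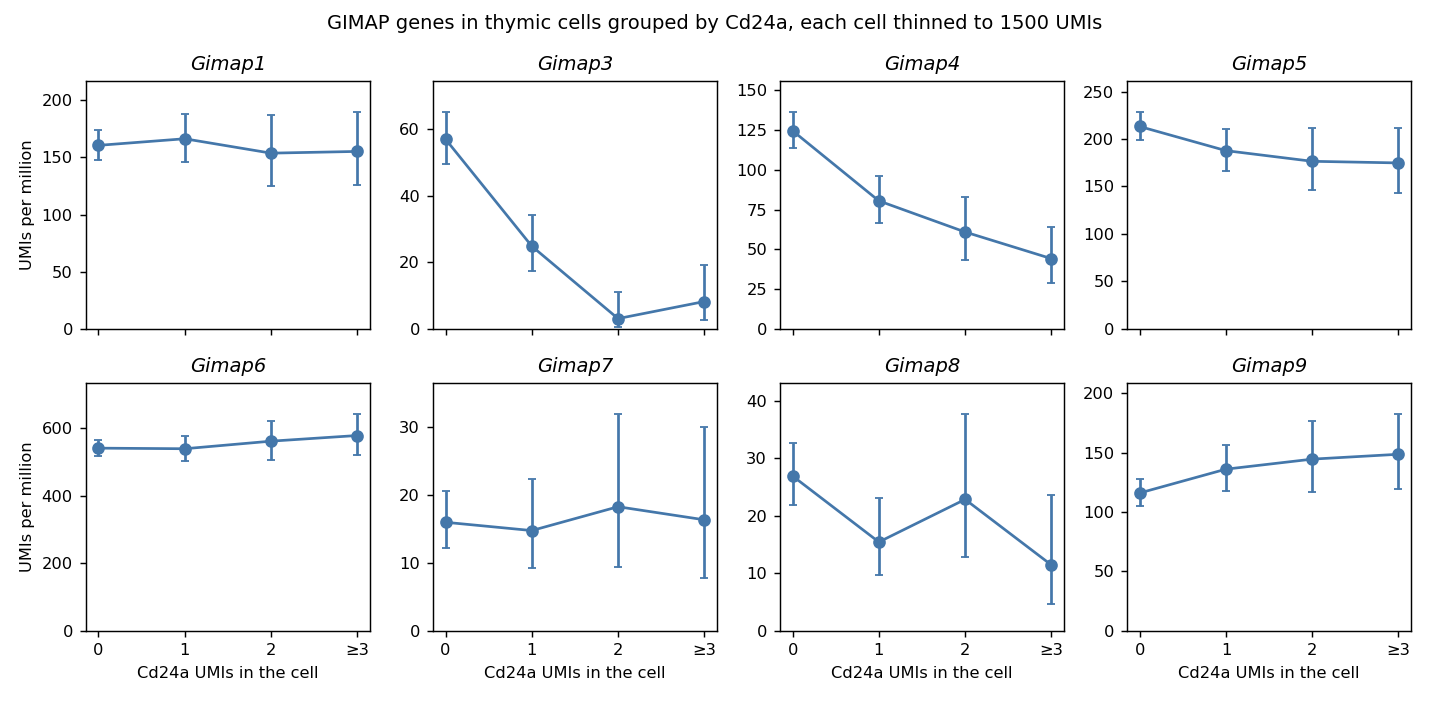
CPM of each GIMAP gene (y axis, linear from 0) in thymic cells with 0, 1, 2 or at least 3 Cd24a UMIs (x axis) after thinning every cell to 1500 UMIs. Bars are exact 95% counting intervals. Gimap3 was at 57.0 in the first group and 8.17 in the last and Gimap4 at 125 and 44.1, while Gimap6 lay between 539 and 578.

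Cycling-like thymic cells, marked by Birc5 and Top2a, had 688 GIMAP CPM, a log2 ratio to immature-like cells of -0.77 (-0.83 to -0.71). Gimap6 was at 241, 2.31-fold (95% interval 2.15 to 2.47) lower, and Gimap5 at 109, 1.72-fold lower. Gimap4 (1.46-fold), Gimap1 (1.28-fold) and Gimap9 (1.17-fold) were lower by less. Gimap3 was the member with a higher level, 11.2 against 5.66 CPM, a log2 ratio of 0.98 (0.36 to 1.59). Gimap8 (9.17 against 19.9) and Gimap7 (11.2 against 14.6) were, like Gimap3, under 20 CPM in both classes. These cells had a median of 7090.0 UMIs, against 3184 in immature-like cells, and the part of this depth in the result was not tested.

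The precursor-like cluster of the joint clustering, led by Ly6c2 and Dapl1, also held 178 thymic cells. NK markers gave 1355 CPM in these thymic cells and precursor markers 1039. NK markers were also above precursor markers in the liver cells of the cluster (2166 and 1796 CPM, with Ly6c2 alone at 1144). The name precursor-like, kept for the liver cells, thus rests on the joint marker scores only. When the thymus was clustered alone, 162 of the 178 thymic cells fell into a single cluster led by Ly6c2, Xcl1, Gzmb, Ccl5 and Klrd1. These 178 are called thymic cells of the Ly6c2-led cluster. Gimap3 reached 191 (95% interval 157 to 230.0) and Gimap4 297 (95% interval 254 to 345), 2.21- and 1.93-fold above transitional-like thymic cells. Gimap6 was at 298, 2.26-fold (95% interval 1.94 to 2.66) below them. Gimap7 was at 10.4, on 6 UMIs. NK markers were at 73.5 CPM in transitional-like cells.

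Cells of the same cluster were then compared between the tissues. Precursor-like liver cells held 2862 GIMAP CPM and thymic cells of the Ly6c2-led cluster 1292, a log2 ratio of 1.15 (1.04 to 1.26), and all 8 members were higher in the liver. Gimap1, Gimap4, Gimap6, Gimap7 and Gimap9, 5 of the 8, were at least 2-fold higher, against 4.14% of 3768 genes, and Gimap3 was at 1.97-fold. Gimap7 had the widest ratio, at 146 against 10.4, a log2 ratio of 3.82 (2.68 to 5.27). Gimap6 was at 818 against 298. NK markers gave 2166 CPM in the liver cells and 1355 in the thymic cells, precursor markers 1796 and 1039, and their part in the result was not tested.

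Type 17-like cells, which express Il17a and Il17f, also had higher levels in the liver. Their summed level was 1358 CPM in the liver and 587 in the thymus, a log2 ratio of 1.21 (1.03 to 1.39). Gimap3 (234 against 73.1), Gimap4 (226 against 60.5), Gimap6, Gimap7 and Gimap9, again 5 of the 8, were at least 2-fold higher in the liver, against 5.41% of 3381 genes. Gimap7 rested on 2 thymic UMIs, and its log2 ratio was 3.94 (2.06 to 6.99). The 48 liver cells of the transitional-like cluster were also above their 1006 thymic counterparts for Gimap3 (304 against 86.5) and Gimap7 (119 against 22.6), while Gimap5 was at 337 and 304, with a log2 ratio of 0.15 (-0.29 to 0.55). NK markers gave 1445 CPM in liver and 25.1 in thymic type 17-like cells, and 891 and 73.5 in transitional-like cells, and their part in these results was not tested. Gimap7 was at 4.18 to 22.6 CPM in the 5 thymic classes and at 63.9 to 496 in the 9 liver classes. Gimap1 was at 129.6 to 189.8 in the thymic classes. In the liver it was at 99.4 in myeloid-like cells and at 274 to 583 in the other 8 classes. The share of all genes with ranges as far apart was not computed.

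**Figure D3:**
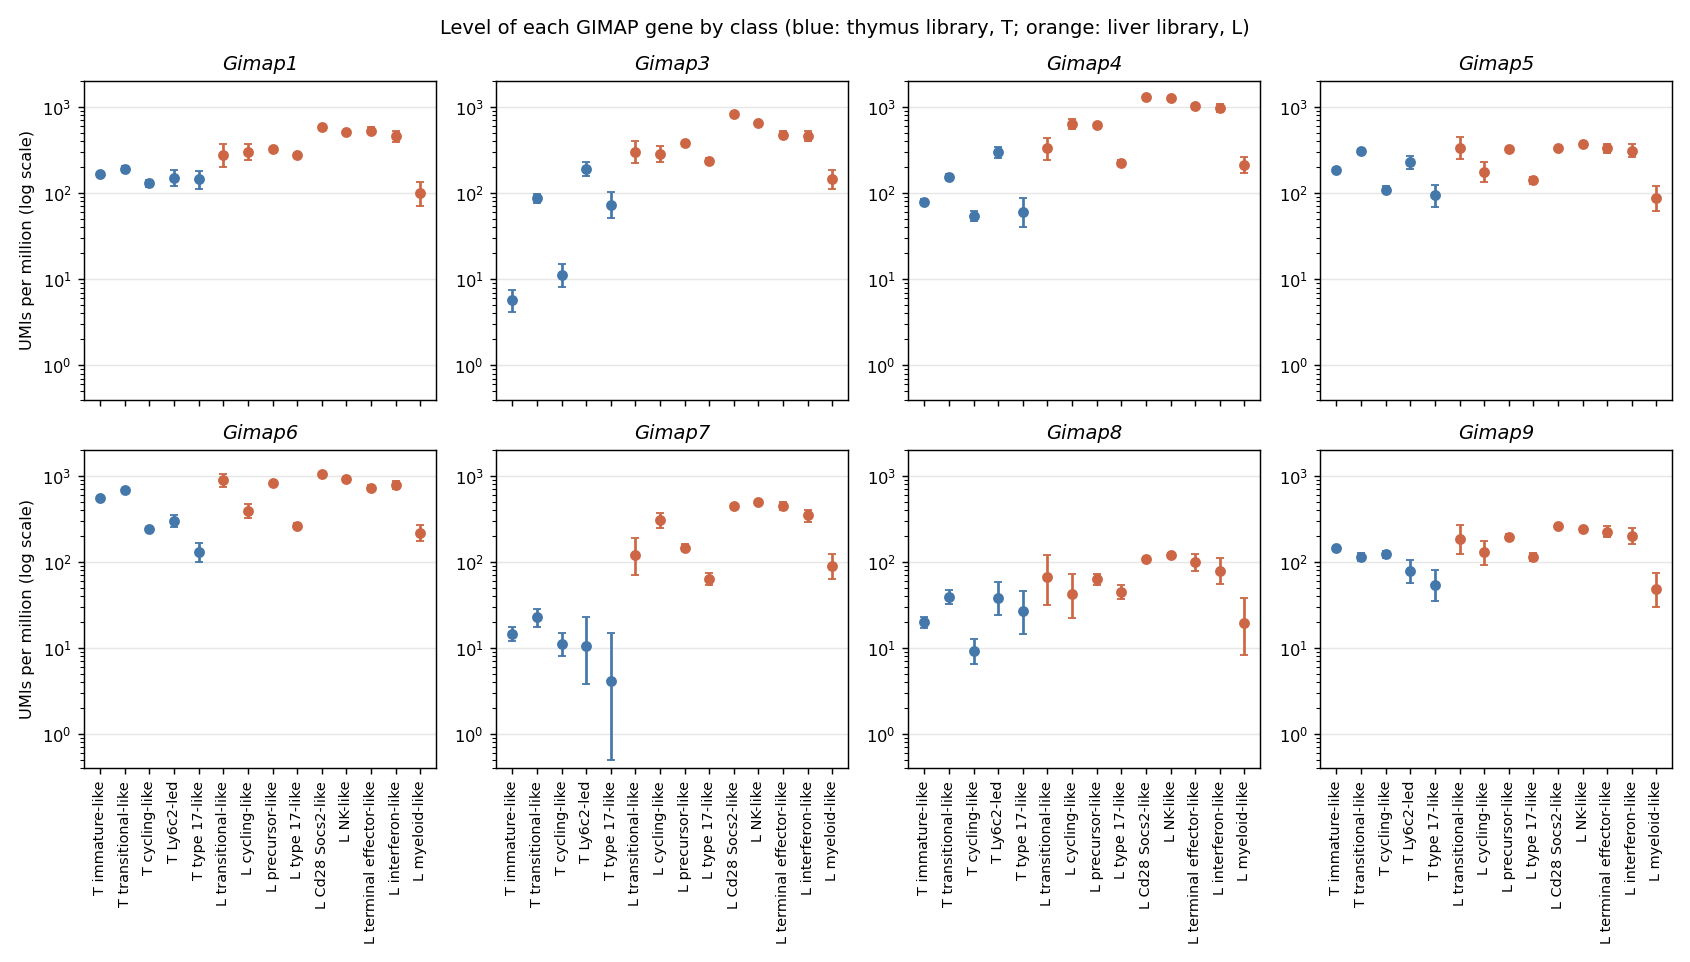
CPM (log axis) of each GIMAP gene in 5 thymic classes (blue, T) and 9 liver classes (orange, L), with exact 95% counting intervals as bars. Gimap7 lay between 4.18 and 22.6 in the thymus and between 63.9 and 496 in the liver, whereas Gimap5 reached 304 in the thymus and 368 in the liver.

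Within the liver, the highest levels were found in the 2 large effector classes. Cd28 Socs2-like cells, which express Cd40lg and Ifng, held 4927 GIMAP CPM, and NK-like cells, with Tyrobp, Ccl4 and Gzmb, held 4600.2, a log2 ratio of 0.099 (0.078 to 0.12). No member differed by 2-fold between them, against 4.33% of 4940 genes in either direction. Gimap3 had the widest ratio, 821 against 658 (1.25-fold, 95% interval 1.20 to 1.29), and Gimap1, Gimap4, Gimap6 and Gimap9 were also higher in Cd28 Socs2-like cells, Gimap4 by 1.03-fold. Gimap5, Gimap7 and Gimap8 were higher in NK-like cells, with Gimap7 at 496 against 451. Leaving mitochondrial and ribosomal-protein UMIs out of the totals, of which NK-like cells had the smaller share (median ribosomal share 21.6% against 26.6%), shifted the median of all genes by 0.10 and brought the summed log2 ratio to 0.20.

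Precursor-like liver cells, with Ly6c2, Dapl1 and Nsg2, had lower levels of all 8 members than both effector classes, except that the interval of Gimap5 against Cd28 Socs2-like cells included equal levels. Gimap7 was 3.08-fold (95% interval 2.80 to 3.39) higher in Cd28 Socs2-like and 3.39-fold (95% interval 3.09 to 3.72) higher in NK-like cells than its 146 in precursor-like cells. Gimap4 was 2.14- and 2.08-fold higher, and Gimap3 2.18- and 1.75-fold higher. Gimap5 was at 326 in precursor-like, 333 in Cd28 Socs2-like and 368 in NK-like cells, and its log2 ratio of Cd28 Socs2-like to precursor-like cells was 0.03 (-0.071 to 0.13). In all, 3 members passed 2-fold in the Cd28 Socs2-like comparison, against 5.33% of 4893 genes, and 2 in the NK-like comparison, against 7.28% of 4960. The median log2 ratio of all genes was 0.22 in both, and that of the members 0.81 and 0.74. Both comparisons share the precursor-like cells.

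Terminal effector-like cells, with Klrg1, Klra6 and S1pr5, held 3863 GIMAP CPM, a log2 ratio to NK-like cells of -0.25 (-0.30 to -0.20). Gimap3 was at 479, 1.38-fold (95% interval 1.24 to 1.53) below NK-like cells, and Gimap1 at 530.0 was within counting error of them. Interferon-like cells, with Ifit1 and Isg15, held 3613, with Gimap4 at 973 and Gimap6 at 789.6. The 42 cycling-like liver cells held 2259, with Gimap4 at 634 and Gimap7 at 303 but Gimap5 at 177.

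Type 17-like cells were the T cell class with the lowest summed level in both tissues. In the liver, all 8 members were at least 2-fold lower than in Cd28 Socs2-like cells, from 2.12-fold for Gimap1 to 7.06-fold (95% interval 6.02 to 8.32) for Gimap7, against 5.7% of 5086 genes. Gimap4 was at 226 CPM against 1318, and Gimap6 at 262 against 1050.3. The median log2 ratio of the members was -1.53, beside -0.026 for all genes. They were also below precursor-like liver cells for each member, by 3.13-fold for Gimap6 and 1.18-fold for Gimap1. In that comparison 4 members were at least 2-fold lower, against 3.32% of 4844 genes. The median log2 ratio was -0.98 for the members and 0.18 for all genes. In the thymus, type 17-like cells had Gimap6 at 129 and Gimap9 at 54.3, log2 ratios to immature-like cells of -2.10 (-2.49 to -1.74) and -1.41 (-2.03 to -0.85), but Gimap3 at 73.1, a log2 ratio of 3.69 (3.02 to 4.35). Tmem176a and Tmem176b, the neighbours on the Gimap3 side, were used to name this class and so are not compared.

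**Figure D4:**
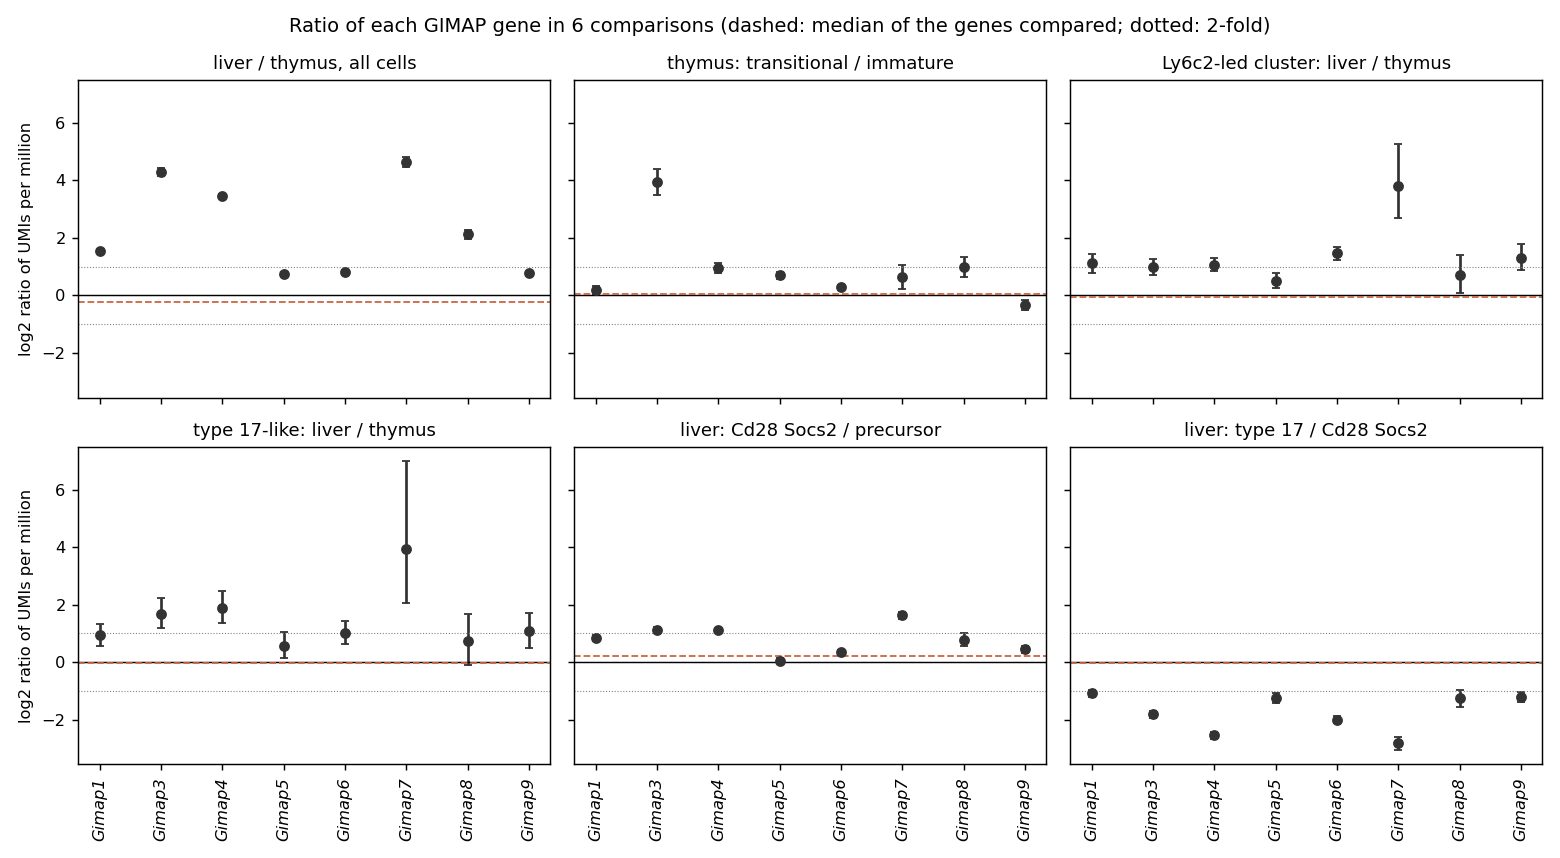
Log2 ratio of CPM (y axis) of each GIMAP gene in 6 comparisons, with exact 95% counting intervals. The dashed line is the median of all genes compared and the dotted lines are 2-fold. Gimap7 was at 4.63 for liver over thymus and at -2.82 for type 17-like over Cd28 Socs2-like liver cells, and Gimap3 at 3.93 for transitional-like over immature-like thymic cells.

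Myeloid-like liver cells held 919 GIMAP CPM, with all 8 members 4.22- to 6.11-fold below NK-like cells. Of the 5134 genes compared, 17.6% were at least 2-fold lower, and the median log2 ratio of all genes was -0.25. The myeloid markers gave 39917 CPM in them, the T cell genes 909 and the NK markers 13144, against 5039 and 19139.6 in NK-like cells. Of the NK markers, Tyrobp (3376), Fcer1g (3422) and Ccl4 (5629), which myeloid cells also express, gave most, while Gzmb was at 628 against 5931 and Ncr1 at 29.1 against 259. Gimap3, Gimap4 and Gimap7 made up 48.5% of their GIMAP UMIs, beside 50.7% in the whole liver library. Whether these barcodes held T cell RNA together with myeloid RNA was not tested.

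In order of summed level, Cd28 Socs2-like and NK-like liver cells came first, followed by terminal effector-like and interferon-like cells, whose intervals overlapped. Precursor-like, transitional-like and cycling-like liver cells followed, and the intervals of transitional-like and cycling-like cells overlapped. Transitional-like thymic cells (1586) came before type 17-like liver cells (1358), thymic cells of the Ly6c2-led cluster (1292, overlapping with them), immature-like thymic cells, myeloid-like liver cells, and cycling-like and type 17-like thymic cells. The ratio of the highest to the lowest class was 145-fold for Gimap3 (95% interval 109.6 to 196) and 119-fold for Gimap7 (95% interval 32.9 to 982, on 2 UMIs in the lowest class). It was 24.4-fold for Gimap4, 12.9-fold for Gimap8, 8.11-fold for Gimap6, 5.86-fold for Gimap1, 5.43-fold for Gimap9 and 4.22-fold for Gimap5. The intervals of 7 of the 13 pairs of neighbours in the order overlapped for Gimap3 and Gimap4, and of 9 to 12 for the other members.

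The same differences were seen in the share of cells with a UMI after thinning to 1500 UMIs. A Gimap4 UMI was found in 84.4% (95% interval 83.0 to 85.7) of NK-like liver cells and 9.92% (95% interval 8.76 to 11.2) of immature-like thymic cells. A Gimap3 UMI was found in 69.2% of Cd28 Socs2-like liver cells, 13.2% of transitional-like and 0.653% (95% interval 0.374 to 1.06) of immature-like thymic cells. Gimap7 was found in 51.8% of NK-like liver cells, 8.57% of myeloid-like liver cells and 2.00% of immature-like thymic cells, at median depths before thinning of 2698, 3069 and 3184 UMIs. Without thinning these 3 shares were 72.8%, 21.9% and 4.93%. Gimap6 was found in 54.5% of immature-like thymic cells and 73.2% of NK-like liver cells. Among myeloid-like cells, the liver class with the lowest level of T cell genes, the shares were 15.2% for Gimap3, 19.0% for Gimap4 and 22.9% for Gimap6. The shares in Cd28 Socs2-like, NK-like and terminal effector-like liver cells lay above them. In type 17-like liver cells they were 27.4%, 22.8% and 27.6%, and the intervals for Gimap4 and Gimap6 overlapped those of myeloid-like cells. Gimap7 was found in 6.43% of type 17-like liver cells, no more than in myeloid-like cells. No class of 20 cells lacked T cell genes in either library (909 CPM in myeloid-like cells), so a background share was not measured. The thinned counts left out 7 thymic and 5 liver cells with fewer UMIs.

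Counted per cell, 70.8% of Cd28 Socs2-like and 69.6% of NK-like liver cells had UMIs of at least 4 of the 8 genes at 1500 UMIs, against 34.0% of precursor-like and 8.20% of type 17-like liver cells. In the thymus this share was 6.49% in transitional-like and 1.88% in immature-like cells. No GIMAP UMI was found in 44.5% of type 17-like thymic cells, 20.2% of immature-like thymic cells and 0.247% of NK-like liver cells. A cell held 4.21 ± 1.31 members (mean ± SD over 2774 cells of 1 library) in the Cd28 Socs2-like class and 1.31 ± 0.953 (over 2450 cells of 1 library) in the immature-like class.

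**Figure D5:**
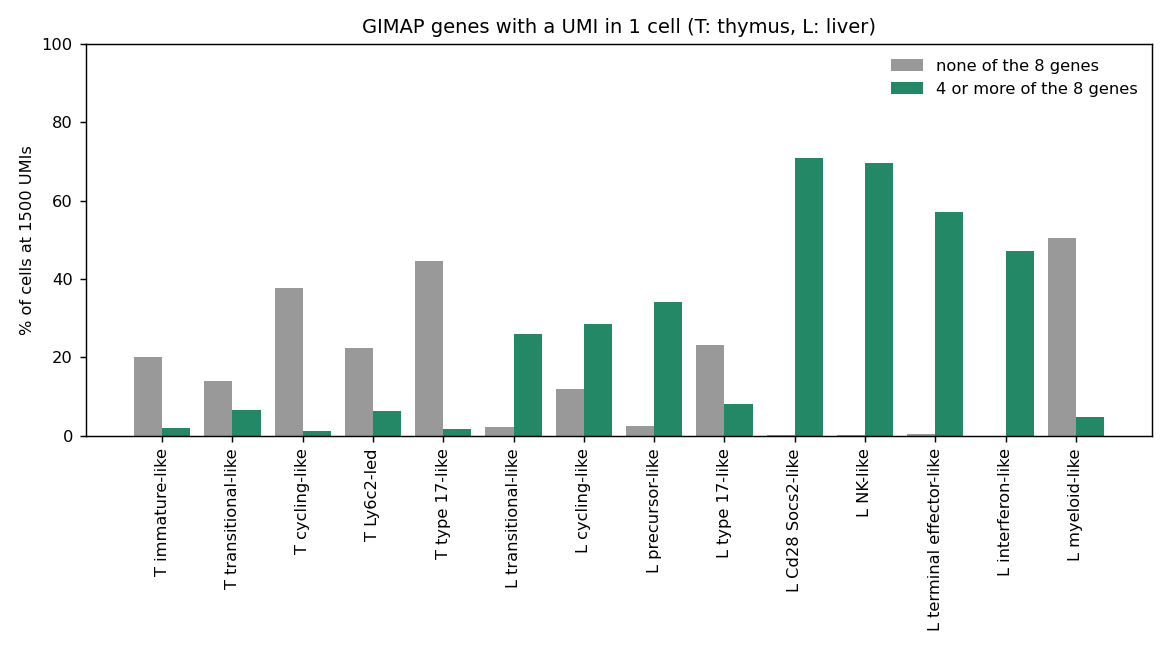
Percentage of cells (y axis, from 0) with UMIs of none (grey) or of at least 4 (green) of the 8 GIMAP genes, each cell thinned to 1500 UMIs, in the 5 thymic (T) and 9 liver (L) classes. At least 4 genes were found in 70.8% of Cd28 Socs2-like liver cells and 1.88% of immature-like thymic cells.

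Across the 14 combinations of library and class, the members were compared by Pearson's r of log2(CPM + 10). These points share 2 libraries and differ in depth and cell number, so r is given as a description. The lowest r between members were 0.49 for Gimap3 and Gimap9 and 0.52 for Gimap3 and Gimap6, and the highest were 0.94 for Gimap5 and Gimap6 and 0.93 for Gimap4 and Gimap7. Gimap3 and Gimap5 had an r of 0.60.

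Among 2393 other genes that reached 100 CPM in a class, the 10 most like the summed family were Ptpn22 (r = 0.93), Peak1, Nr4a2, Sp100, Trip4, Tapbpl, Lamb3, Tbx21, Cd160 and H2-T22 (r = 0.89). Ptpn22 encodes a phosphatase that restrains T cell receptor signalling, Tbx21 encodes the type 1 transcription factor T-bet, and Cd160 a receptor of NK and T cells. The gene most like Gimap3 was Il2rb, the β chain of the interleukin-2 and interleukin-15 receptors (r = 0.98). Gimap4 was most like Epsti1, an interferon-inducible gene (0.98), Gimap7 most like Cd160 (0.93) and Gimap8 most like H2-Q4, a non-classical class I gene (0.93). Gimap1 was most like Casp8, the initiator caspase of death receptors (0.92), Gimap5 most like Rsbn1l (0.94), Gimap6 most like Plcxd2 (0.91) and Gimap9 most like Fyn, a Src family kinase (0.86).

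Genes of lymphocyte survival, with reported partners of GIMAP proteins, were read from a list of 11 (Bcl2, Bcl2l1, Bcl2l11, Bax, Bad, Mcl1, Gsk3b and 4 genes of the GABARAP and LC3 family). All 11 could be compared between the libraries, 2 (Bcl2 and Bcl2l1, which encode inhibitors of apoptosis) were at least 2-fold higher in the liver, and none was lower, beside 10.2% of all genes higher and 13.1% lower. Bcl2 was at 426 CPM in NK-like and 85.9 in type 17-like liver cells, and at 154 in immature-like thymic cells. Bcl2l11, which encodes the pro-apoptotic protein BIM, was at 144 in immature-like thymic and 72.4 in NK-like liver cells. Gabarapl2, whose protein Gimap6 binds, was at 339.7 in Cd28 Socs2-like liver and 145 in immature-like thymic cells.

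Of 10 genes of quiescence and recirculation, 4 (Klf2, S1pr1, Ccr7 and Il7r) were at least 2-fold higher in transitional-like than in immature-like thymic cells and none was lower, where the share of all genes was 3.52%. S1pr1 and Ccr7 were also used to name classes. Klf2, a transcription factor of quiescent circulating T cells, was at 402 CPM in immature-like and 1023 in transitional-like thymic cells, and at 2708 in precursor-like and 1059 in NK-like liver cells.

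Of 12 other GTPase genes of immune cells, which are interferon-inducible, 7 could be compared between the libraries. Of these, 6 (Gbp2, Gbp4, Gbp7, Gbp8, Gbp9 and Igtp) were at least 2-fold higher in the liver and none was lower, where 10.2% of all genes were higher. Igtp was at 226 in interferon-like, 116 in Cd28 Socs2-like and 63.7 in NK-like liver cells, and at 19.4 in immature-like thymic cells. The GIMAP genes were not highest in interferon-like cells, where Gimap4 was at 973 against 1318 in Cd28 Socs2-like cells.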

How the data were processed

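Per the submitters' processing notes, the authors aligned reads to mm10 and counted UMIs with Cell Ranger and used Seurat 3.0, and they deposited raw UMI counts per gene and barcode for 1 liver and 1 thymus library. The 2 stray lines after the thymus matrix were not read. Here cells with 800 to 4000 genes and at most 6% mitochondrial UMIs were kept. Scrublet marked 4 liver and 1 thymic barcodes and was taken not to have worked, so doublets were kept. Cells were clustered in Seurat 5.3.0 under R 4.3.3 (2000 variable genes without GIMAP genes, 30 principal components, resolution 0.6). Each cluster was named for the marker list that led in mean log2 ratio to the other clusters, with at least 3 markers detected and no other class having more among its 10 leading genes. Counts were summed per library and class and given as CPM. Intervals were exact (Poisson, binomial, conditional binomial), with scipy 1.17.1, and no p-value was computed. Only the conditional binomial intervals of the ratios were tested on simulated data. The members and gene lists were chosen with earlier results of these data known. A class needed 20 cells in a library to be described. Named genes were the 8 members, the 10 genes most like their sum and the most like gene of each member over classes of at least 20 cells, and 3 gene lists. Alternatives changed 1 choice at a time. The results of 1 gene of these lists are not reported here.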

Additional observations from a re-analysis of the deposited data

Results flagged for a closer look

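Over 6 pairs of classes present in both libraries, 3 members had ratios of opposite sign in the liver and the thymus, each with a counting interval on 1 side of 0. Gimap9 in cycling-like cells against the Ly6c2-led cluster (precursor-like in the liver) had a log2 ratio of -0.59 in the liver and 0.66 in the thymus. Gimap4 in cycling-like against transitional-like cells had 0.94 in the liver and -1.51 in the thymus, and Gimap7 in the same pair had 1.35 and -1.02. With 1 library per tissue these differences were not tested, and the liver values rest on 42 cycling-like and 48 transitional-like cells. The share of all genes with opposite signs over the same pairs was not computed, so the count of members cannot be read as particular to the family.

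Barcodes left out by the limits on genes and mitochondrial UMIs also held GIMAP transcripts, at 3113 CPM in 583 liver barcodes and 1238 in 190 thymic barcodes. Just inside the limit, cells with at least 800 and under 1000 genes held 3708 and 1319.5. Just outside it, barcodes with fewer than 800 genes held 3020.4 and 1215. The read-through gene Gm28053, which was not among the members, had 49 UMIs in the liver and 5 in the thymus, above the 3 counts taken as the limit of detection.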

How the results depend on the processing

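No paired analysis was possible because each tissue had 1 library and the groups share fewer than 2 replicate numbers. Under alternative settings, 65 values of the 6 summary results stayed within the counting interval of the reported value (or, for counts, within 1.5 times it), 19 moved and none changed direction. For liver against thymus, the summed log2 ratio was 1.74 as the mean of the cells' own levels, 1.75 at 1500 UMIs per cell and 1.67 without mitochondrial and ribosomal-protein UMIs, and 8 members passed 1.5-fold. For transitional-like against immature-like thymic cells it was 0.50 as the mean of the cells' own levels, 0.50 at 1500 UMIs, and 0.14 by Cd24a UMIs, where Gimap6 (-0.097) and Gimap7 (-0.033) reversed. The members at least 2-fold higher there numbered 2 with a minimum of 500 genes, at resolution 0.8, with each library clustered alone, at 1500 UMIs or without the antigen-presentation cluster (an alternative chosen after seeing the data), 3 as the mean of the cells' own levels or by Cd24a, and 5 at 1.5-fold. For Cd28 Socs2-like against NK-like liver cells the log2 ratio was 0.076 with a minimum of 500 genes, 0.074 with 3000 variable genes, 0.065 with the liver clustered alone and 0.20 without mitochondrial and ribosomal-protein UMIs. The causes were not tested. For single members, 414 values stayed within their intervals, 32 moved and 2 reversed. After seeing the data, barcodes found in both libraries were left out, which moved none of the 6, and myeloid-like and B cell-like cells, which moved neither result of liver against thymus. Depth limits Gimap7 in thymic type 17-like (2 UMIs) and Ly6c2-led cells (6 UMIs).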
